A study of Mus musculus with 2 samples.

Results

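This section describes 10 genes that set how strongly a T cell answers its antigen receptor: Ctla4, Lag3 and Pdcd1 (inhibitory receptors), Cd28 and Icos (costimulatory receptors of the immunoglobulin superfamily), Tnfrsf4, Tnfrsf9 and Tnfrsf18 (costimulatory receptors of the TNF receptor superfamily, also called OX40, 4-1BB and GITR), the early activation marker Cd69, and Cd40lg, which is itself a ligand. They were chosen by name, as inhibitory and costimulatory molecules of stimulated T cells, by a rule that uses no signal value but was set with earlier results of these data known. Every probe set annotated to exactly 1 of these symbols was used, which gave 15 of the 34945 probe sets with a single gene symbol, and 10 of 18193 genes. The samples were mouse primary T cells after 18 h in culture. One RNA sample came from cells stimulated with anti-CD3 and anti-CD28. The other came from cells given both of these together with triptolide at 50 ng/ml, so stimulation was shared by both and no unstimulated sample was analysed here. Triptolide is a plant diterpenoid that binds the XPB subunit of the general transcription factor TFIIH. The strain, age and number of mice, how pure the T cells were and how long the drug was present are not stated in the labels.

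A T cell needs a signal through its antigen receptor and a second signal through a costimulatory receptor such as CD28, which binds CD80 and CD86 on antigen-presenting cells. CTLA-4 is made after activation, binds the same ligands more tightly than CD28 and restrains the response. PD-1 and LAG-3 are further inhibitory receptors, while ICOS, OX40, 4-1BB and GITR sustain activated cells, and CD40 ligand passes help to B cells and dendritic cells. CD28 itself was a target of the stimulating antibodies, so its transcript is that of a receptor engaged in both samples.

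With triptolide, 5 of the 10 genes had a signal at least 2-fold lower than without it: Ctla4 (14.2-fold), Lag3 (3.17-fold), Tnfrsf9 (3.06-fold), Cd28 (2.92-fold) and Tnfrsf4 (2.19-fold). Icos, Tnfrsf18, Cd69 and Pdcd1 were within 2-fold, and Cd40lg was not above the background floor, defined below, on either array. Of the 9 that were detected, 5 were thus past 2-fold downward and 0 upward, where the shares over all 10968 detected genes were 12.5% and 5.63%. The lower genes included inhibitory and costimulatory receptors alike, as did the genes within 2-fold. Each condition was measured on 1 array, so no test between conditions was possible. All folds describe these 2 arrays, and neither they nor the counts have an error between cultures. A gene was detected if its signal lay above a background floor of 118 on at least 1 array. Signals below the floor were set to it, and each gene was represented by its brightest probe set over both arrays. RNA came from whole cell populations, so fewer cells expressing a gene and less RNA per cell cannot be told apart.

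Upstream sequence from RefSeq (assembly GRCm38.p6) was found for 5 of the 10 genes, in 6 windows of 250 bases ending just before a listed start site. Those of Ctla4, the gene with the lowest ratio, of the adjacent genes Tnfrsf4 and Tnfrsf18, which had unlike ratios, and of the second listed start of Tnfrsf9 are given 5′ to 3′. Capitals mark matches on either strand to GGAAA (the core of NFAT sites), TGANTCA (AP-1), CCGCCC (a GC box), TATAAA or the NF-κB consensus.
Ctla4 (chr1:60908775-60909024, plus strand): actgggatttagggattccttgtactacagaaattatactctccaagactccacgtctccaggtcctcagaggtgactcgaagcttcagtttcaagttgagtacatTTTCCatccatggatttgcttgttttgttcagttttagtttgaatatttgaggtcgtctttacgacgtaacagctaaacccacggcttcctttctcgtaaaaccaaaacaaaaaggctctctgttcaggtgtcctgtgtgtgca
Tnfrsf4 (chr4:156013445-156013694, plus strand): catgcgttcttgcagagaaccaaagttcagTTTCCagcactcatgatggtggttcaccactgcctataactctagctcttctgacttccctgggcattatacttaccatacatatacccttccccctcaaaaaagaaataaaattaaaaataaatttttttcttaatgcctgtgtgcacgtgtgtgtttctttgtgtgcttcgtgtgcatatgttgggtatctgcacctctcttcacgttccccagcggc
Tnfrsf18 (chr4:156026072-156026321, plus strand): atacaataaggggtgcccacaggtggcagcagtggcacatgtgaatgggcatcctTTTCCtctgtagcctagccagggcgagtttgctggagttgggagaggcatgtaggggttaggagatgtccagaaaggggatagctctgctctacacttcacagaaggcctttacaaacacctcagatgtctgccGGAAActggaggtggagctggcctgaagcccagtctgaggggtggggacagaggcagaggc
Tnfrsf9, second start (chr4:150927749-150927998, plus strand): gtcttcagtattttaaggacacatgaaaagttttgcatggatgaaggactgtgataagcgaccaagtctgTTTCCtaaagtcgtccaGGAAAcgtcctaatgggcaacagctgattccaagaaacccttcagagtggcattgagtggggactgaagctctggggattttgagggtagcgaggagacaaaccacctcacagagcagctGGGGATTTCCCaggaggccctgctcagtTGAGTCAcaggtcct

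All 6 windows held the short NFAT core, which was present in 55.6% of the 32851 windows of equal length in the RefSeq table. The windows of Ctla4, Tnfrsf4 and Tnfrsf18 held 1, 1 and 2 such matches and none of the other motifs. The second start of Tnfrsf9 had 2 NF-κB matches that overlap each other and, between them and the start, 1 AP-1 match. An NF-κB match was found in 7.25% and an AP-1 match in 6.75% of all windows. These NF-κB matches also share bases with the NFAT core nearest to the start. The other start of Tnfrsf9, and Pdcd1, had 1 GC box each (32.7% of all windows), and no window held TATAAA (12.4%). A match describes letters only and is not evidence that a factor binds there.

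Before the individual genes, the samples and the precision of the arrays are described. T cell genes were abundant on both arrays. Of 13 T cell markers with a probe set of their own, 13 were above the floor on both, among them the CD3 chains Cd3d (11425.7 without and 9733.4 with triptolide) and Cd3g (3801.5 and 4293). With triptolide 5 of these 13 markers were lower by 2-fold or more, among them Cd4 and Cd8a (log2 ratios of -1.28 and -1.60), and 0 were higher. Over all detected genes the shares past 2-fold were 12.5% downward and 5.63% upward. The probe sets of Cd8a ran from -1.61 to 0.17, and its partner Cd8b1 had -0.61. The summed signal of the 13 T cell markers was 71901 without and 49131 with the drug. Among B cell markers, 9 of 11 were detected and 3 were at least 2-fold lower. Their summed signal was 6787 and 3831, with the lineage factor gene Pax5 under the floor on both arrays. Among myeloid and dendritic markers 6 of 14 were detected and 1 was at least 2-fold higher (summed signal 6960 and 9184), with Itgam, Cd14 and Itgax under the floor on both. NK cell, neutrophil, and platelet and erythroid markers had 6, 5 and 2 detected genes, with summed signals of 7562, 731 and 769 without and 5382, 703 and 1445 with triptolide. The largest NK marker signal was that of Nkg7 (4148.4 and 2354.3), while Ncr1 and Klra8 were under the floor on both arrays. Gzma was 3.91-fold lower. No neutrophil marker was above the floor on both arrays. The platelet genes Itga2b and Gp5 were 2.13- and 2.92-fold higher. The part of cells other than T cells in the receptor signals was not tested. In 1574 genes with 2 probe sets above 4 times the floor on both arrays, the log2 ratios of the brightest pair differed by a median of 0.26, and by at most 0.999 in 95% of genes. In the 3733 genes whose pair only had to be above the floor, the median difference was 0.37. These differences give a scale for reading ratios of single probe sets and do not cover variation between cultures. Over all detected genes the log2 ratio had a median of -0.16. Lower genes were 68.9% of the genes past 2-fold as deposited, 58.2% with both arrays centred on their medians, 50.9% after quantile normalization and 77.7% when scaled on housekeeping genes.

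**Figure D1:**
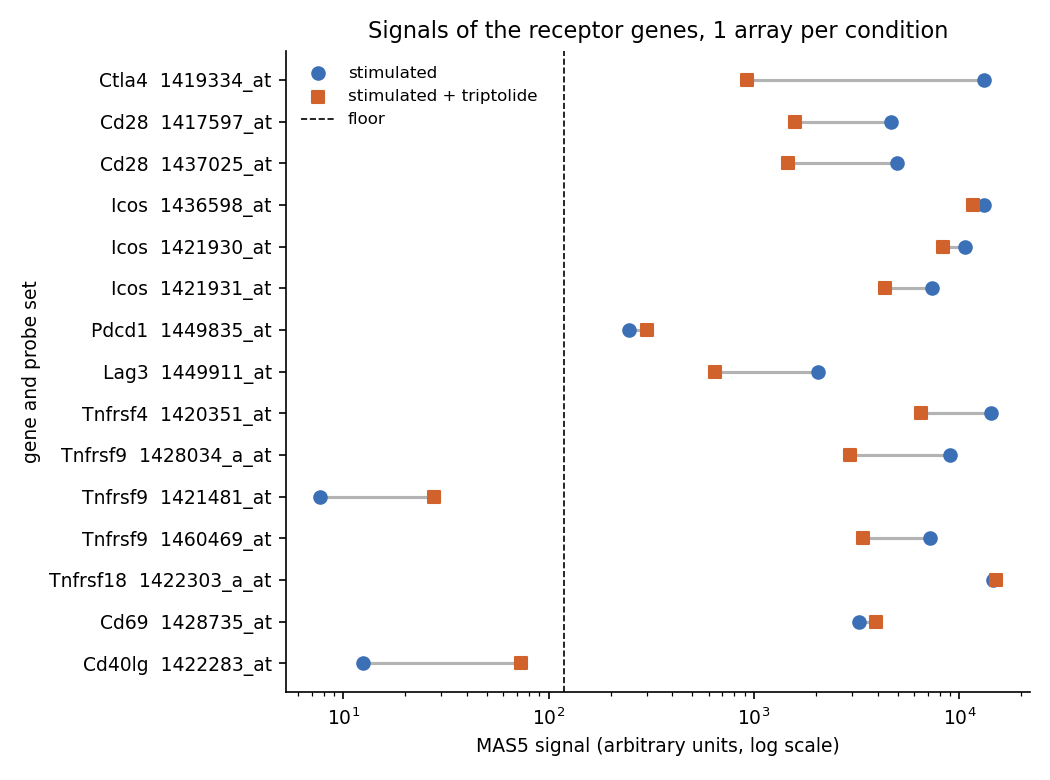
MAS5 signal (log scale, arbitrary units) of each of the 15 probe sets of the 10 genes on the stimulated array (circles) and the triptolide array (squares), with the floor of 118 as a dashed line. The widest gap above the floor is that of Ctla4 (13132.5 to 921.7), while the points of Tnfrsf18 nearly coincide and Cd40lg lies left of the floor on both arrays.

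Ctla4, the inhibitory counterpart of CD28, had a signal of 13132.5 without and 921.7 with triptolide on its single probe set (1419334_at). The first value is 111 times the floor, and the second was still 7.79 times the floor, so the arrays measured the gene on both sides. The signal with triptolide was 7.02% of that without, a log2 ratio of -3.83, or -3.67 relative to the median gene. Among the 8677 genes above the floor on both arrays, 2 had a lower ratio. With 1 probe set, no second reading of this gene was available.

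Lag3, an inhibitory receptor that binds MHC class II, had signals of 2050 without and 646.6 with triptolide (1449911_at). With 31.5% of the signal left, its log2 ratio was -1.66, and 2.84% of the genes above the floor on both arrays had a lower one. Pdcd1, the gene of PD-1, was dim on its single probe set (1449835_at), with 246 without and 299.7 with triptolide. Both values lay between 2.08 and 2.53 times the floor. Its log2 ratio of 0.28 is smaller than the 0.37 by which probe sets of 1 gene above the floor typically differed. The 3 inhibitory receptors thus spanned ratios from -3.83 to 0.28, and the ratio of Ctla4 was 4.49-fold lower than that of Lag3, which in turn was 3.86-fold lower than that of Pdcd1.

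Cd28, the costimulatory receptor engaged by the stimulating antibodies, was read by 2 probe sets. On 1417597_at the signal was 4619.5 without and 1580 with triptolide, and on 1437025_at it was 4969.5 and 1462.9. Both were thus lower with the drug by about the same amount, with log2 ratios of -1.55 and -1.76 that differ by 0.22. The log2 ratio of Ctla4 minus that of Cd28 was -2.28, more than the difference of 0.999 that bounded 95% of probe set pairs.

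Icos, a costimulatory receptor induced by activation, was read by 3 bright probe sets. The signal was 13182.4 without and 11666.4 with triptolide on 1436598_at, 10583.6 and 8278.4 on 1421930_at, and 7378.4 and 4353.3 on 1421931_at. All 3 were lower with triptolide, but none by 2-fold. Their log2 ratios of -0.18, -0.35 and -0.76 ran over 0.58, and the brightest lay within 0.02 of the median gene. The log2 ratio of Cd28 minus that of Icos was -1.37, and for Ctla4 minus Icos it was -3.66. Of the CD28-related receptors outside the 10 genes, Btla, an inhibitory receptor, had signals of 2793.8 and 2823.7, a log2 ratio of 0.02.

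**Figure D2:**
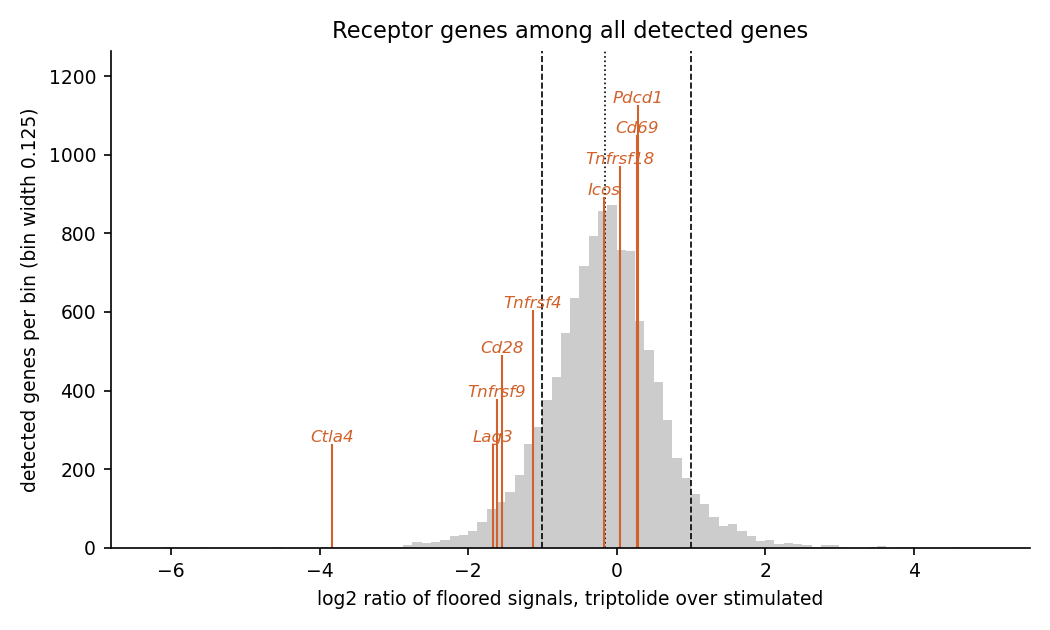
Histogram of the log2 ratio (triptolide over stimulated, floored signals) of all 10968 detected genes in equal bins, with the 9 detected genes of this group marked by labelled lines whose height has no meaning. Dashed lines mark 2-fold and the dotted line the median of -0.16. Ctla4 stands far to the left at -3.83, Lag3, Tnfrsf9, Cd28 and Tnfrsf4 lie between -1.66 and -1.13, and Icos, Tnfrsf18, Cd69 and Pdcd1 lie near the middle.

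Of the TNF receptor superfamily members, Tnfrsf9 and Tnfrsf4 were lower by 2-fold or more and Tnfrsf18 was within 2-fold. Tnfrsf9 (4-1BB), a receptor induced by activation that supports survival, was lower on both of its bright probe sets. The signal was 9004.8 without and 2945 with triptolide on 1428034_a_at, and 7192 and 3384.7 on 1460469_at. The log2 ratios were -1.61 and -1.09, both past 2-fold, with a difference of 0.52. The remaining probe set (1421481_at) read 7.7 and 27.7, under the floor on both arrays, and gives no ratio.

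Tnfrsf4 (OX40), which promotes expansion and memory of activated CD4+ cells, had signals of 14233.6 without and 6512.8 with triptolide on its only probe set (1420351_at). At a log2 ratio of -1.13 it is the member nearest to the 2-fold limit, and relative to the median gene it was -0.97. Tnfrsf18 (GITR), whose gene lies next to Tnfrsf4, had 14594 and 15058.5 (1422303_a_at). Its log2 ratio of 0.05 turned to -0.08 when arrays were scaled on housekeeping genes, so no direction is given. The log2 ratio of Tnfrsf4 minus that of Tnfrsf18 was -1.17 and that of Tnfrsf9 minus Tnfrsf18 was -1.66, both larger in size than the 0.999 that bounded 95% of probe set pairs. In other TNF receptor genes of T cells the log2 ratios were -1.12 for Cd27, -0.86 for Tnfrsf25 and 0.64 for Tnfrsf1b.

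Cd69, a C-type lectin that appears early on activated cells and retains them in lymphoid tissue, had 3240 without and 3917 with triptolide (1428735_at). Its log2 ratio was 0.27, or 0.43 relative to the median gene, within 2-fold. Cd40lg, the ligand of CD40, read 12.5 without and 73.5 with triptolide (1422283_at). Both values lie under the floor, so the gene has no ratio here, and a level below the floor does not show that the transcript was absent.

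**Figure D3:**
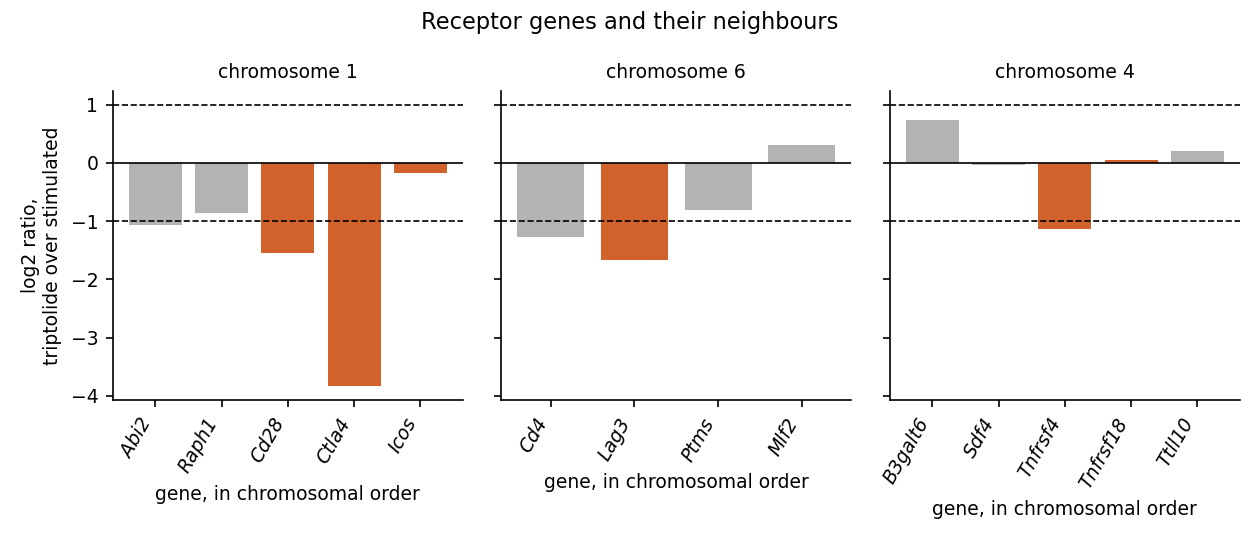
Log2 ratio (triptolide over stimulated) of receptor genes (orange) and adjacent protein-coding genes (grey) in their order on chromosomes 1, 6 and 4, with spacing not to scale and dashed lines at 2-fold. Cd28, Ctla4 and Icos stand side by side with ratios of -1.55, -3.83 and -0.18, and Tnfrsf4 and Tnfrsf18 with -1.13 and 0.05.

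Several of these genes are neighbours, by their order in the RefSeq table of GRCm38.p6, which was used for order only. Cd28, Ctla4 and Icos follow each other on chromosome 1 with no protein-coding gene between them, and the middle one had the lowest ratio. On the Cd28 side, Raph1 and Abi2 had log2 ratios of -0.86 and -1.07, while Pard3b on the Icos side was under the floor on both arrays. On chromosome 4, Tnfrsf4 (-1.13) lies between Sdf4 (-0.04, signals of 16081.7 and 15645.5) and Tnfrsf18 (0.05), which is followed by Ttll10 (0.21). On chromosome 6, Lag3 (-1.66) is adjacent to Cd4, a coreceptor gene of the same superfamily that was also lower (971.7 without and 400.4 with triptolide, log2 ratio -1.28), and to Ptms (-0.80). Neighbouring receptor genes thus had unlike ratios on chromosomes 1 and 4, and alike ones in the case of Lag3 and Cd4.

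Ligands of these and of other receptors, which T cells and remaining antigen-presenting cells can make, went both ways. Those of receptors outside this group included Pvr, Cd70 and Tnfsf8. Beside shares of 12.5% lower and 5.63% higher over all detected genes, 5 of 18 detected ligands were lower and 3 higher by 2-fold or more (median log2 ratio -0.60). Of those of PD-1, Pdcd1lg2 was 2.22-fold higher (164.6 to 364.7) and Cd274 was within 2-fold with a log2 ratio of 0.76. The OX40 ligand gene Tnfsf4 was 2.08-fold higher (234 to 487), and the 4-1BB ligand gene Tnfsf9 had a log2 ratio of -0.75. For the CD28 and CTLA-4 ligands the readings were dim. Cd80 had 128.9 and 268.6 (2.08-fold higher), with probe sets from -0.55 to 1.06. Cd86 had 321.7 and 166.8, with probe sets from -0.95 to 0.51. The MHC class II genes H2-Ab1 and H2-Aa, whose product LAG-3 binds, were 2.97- and 2.21-fold lower. The other lower ligands were Pvr (3.21-fold, with ratios from -2.24 to -1.36 over its probe sets) and Lgals9 (2.19-fold). Cd40, counted here with the ligands although it is the receptor of Cd40lg, was 2.29-fold lower, with probe sets from -1.20 to -0.18. With a pseudocount in place of the floor, 0 ligands were past 2-fold upward. The summed B cell marker signal was also lower, mostly through Ighm (3481.9 to 1805.1, probe sets from -2.60 to 0.53) and H2-Ab1 itself. The B cell receptor genes Cd79a and Cd79b had log2 ratios of 0.95 and -0.08, and the part of B cells in the class II and Cd40 signals was not tested.

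Over all detected genes the shares past 2-fold were 12.5% downward and 5.63% upward. Of 35 detected genes for signalling and trafficking of these receptors, 0 were higher (median log2 ratio -0.48) and 11 were lower by 2-fold or more. They included Grap2, the adaptor GADS that binds the CD28 tail (6.19-fold, 953.8 to 154), Sh2d1a, the SLAM adaptor SAP (3.52-fold), Ptpn6, the phosphatase SHP-1 (3.33-fold), Prkcq, the kinase PKC-theta downstream of CD28 (2.77-fold) and Themis (2.62-fold). The 2 probe sets of Grap2 had log2 ratios of -2.63 and -1.46, and its signal of 154 with triptolide lay close to the floor of 118. Traf6 was 3.06-fold lower on the probe set used, but its probe sets ran from -2.02 to 0.86. The others were Pik3r2 (at least 2.29-fold, under the floor with triptolide), Ap1m1 (2.23-fold), which acts in sorting of CTLA-4, Cblb (2.12-fold), Ppp2r1a (2.12-fold) and Malt1 (2.04-fold). Ptpn6, Ap1m1 and Ppp2r1a also had probe sets within 2-fold, with log2 ratios up to -0.74, -0.72 and -0.70. Highest on the probe sets used were Akt1 and Bcl10 with log2 ratios of 0.58 and 0.54. Probe sets of Akt1 ran from -0.49 to 0.74. Map3k14 had 0.32 on the probe set used and 1.25, past 2-fold upward, on its other one.

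Over all detected genes, 8980 of 10968 were within 2-fold, while 12.5% were lower and 5.63% higher by 2-fold or more. Further receptors of both kinds are given beside these values. Of 17 other costimulatory receptors detected, 3 were past 2-fold downward, Cd81 (3.69-fold), Cd2 (2.54-fold) and Cd27 (2.18-fold), and none was higher, with a median log2 ratio of 0.37. The highest were Cd44 and Crtam at 0.97 and 0.96. Of 10 other inhibitory receptors detected, 2 were lower and 1 higher by 2-fold or more (median -0.36). Cd96 was 3.99-fold higher (400.4 to 1599.5), Sit1 was 2.39-fold lower, and Vsir, the gene of VISTA, was 3.23-fold lower, with its other probe set at 0.47. The median of the 9 detected genes described here was -1.13. Among 10 early activation and related surface genes detected, Il2rb (3.75-fold) and Izumo1r (3.61-fold) were lower, and Nrp1 was at least 2.35-fold higher, with its other probe set above the floor at 0.10.

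Ctla4 and Tnfrsf18 are also markers of regulatory T cells, and the other markers of these cells were read beside them. The lineage factor gene Foxp3 was under the floor without triptolide and above it with the drug (100.0 and 190.3), Ikzf2 had a log2 ratio of -0.38 (other probe sets as low as -1.22), Gpr83 of -0.96 and Ikzf4 of -0.58. Il2ra had -0.26, with another probe set at 2.26. Izumo1r (-1.85) and Nrp1 (at least 1.23) were past 2-fold in opposite directions. Of 9 detected markers, with Ctla4 and Tnfrsf18 counted, 2 were past 2-fold downward and 1 upward, beside 12.5% and 5.63% of all detected genes. The part of regulatory T cells in the Ctla4 signal was not tested.

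Of 33 transcription factors that regulate such receptors and were detected, 3 were lower and 3 higher by 2-fold or more and 27 were within 2-fold (median -0.45). The share within 2-fold was near that of all detected genes (8980 of 10968), of which 12.5% were lower and 5.63% higher. The NF-κB gene Rel was 3.83-fold lower (1704.9 to 444.8), the AP-1 gene Junb 2.29-fold and Maf 2.09-fold lower, the last with probe sets from -1.06 to 0.22. Egr2 and Nr4a2 were 3.48- and 2.72-fold higher and Fosl1 at least 2.10-fold higher. Probe sets of Egr2 ran from 0.50 to 1.80 and those of Nr4a2 from -0.71 to 2.43. The calcium-regulated factor genes Nfatc1 and Nfatc2 had log2 ratios of 0.04 and -0.61, with probe sets of Nfatc1 from -0.96 to 0.55.

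**Figure D4:**
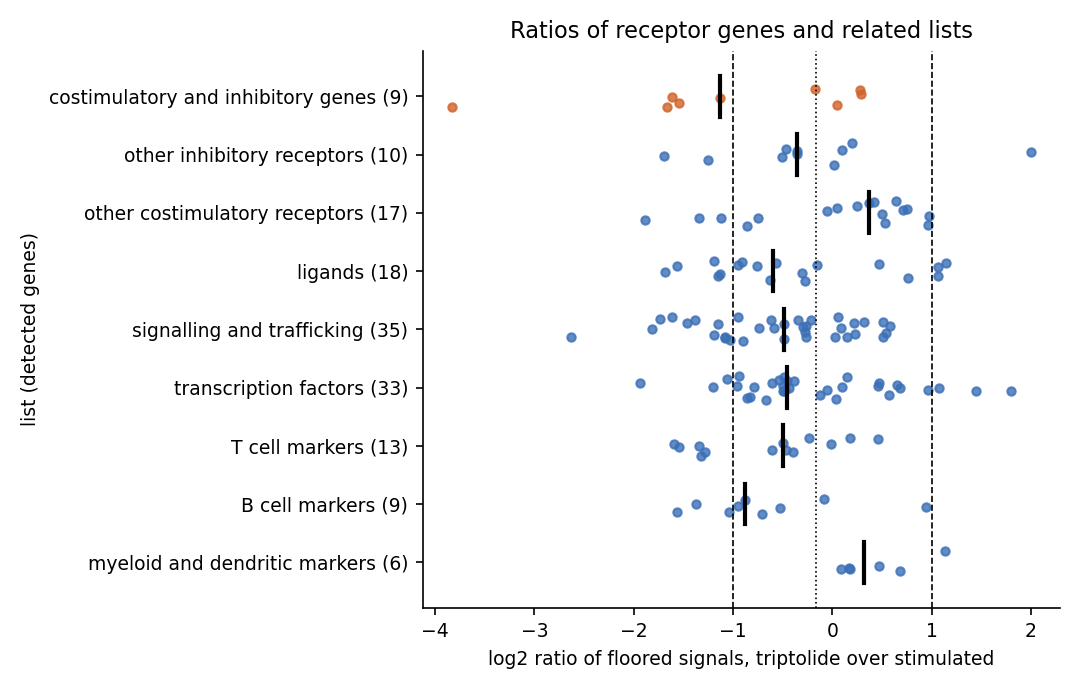
Log2 ratio (triptolide over stimulated) of each detected gene (points, spread vertically at random) in the costimulatory and inhibitory genes (orange) and in related lists (blue), with the number detected in brackets, list medians as black bars, dashed lines at 2-fold and a dotted line at the median of all detected genes. The median of the first group is -1.13, that of the other costimulatory receptors 0.37 and that of the signalling and trafficking genes -0.48.

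**Figure D5:**
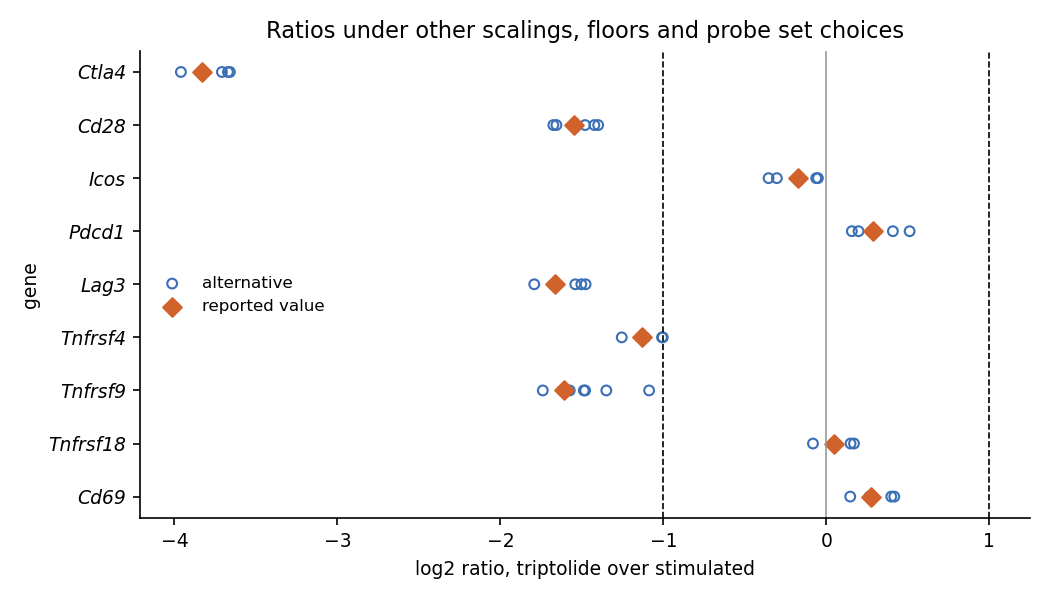
Log2 ratio (triptolide over stimulated) of the 9 detected genes as reported (diamonds) and under up to 8 other scalings, floors and choices of probe set (open circles), with dashed lines at 2-fold. Ctla4 stays between -3.96 and -3.66, Tnfrsf4 comes as close to the 2-fold limit as -1.003, and Tnfrsf18 has values on both sides of 0.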

How the data were processed

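Biotin-labelled RNA of 1 stimulated and 1 stimulated and triptolide-treated T cell sample was hybridised to Affymetrix arrays. Linear signal intensity values, 1 for each probe set, were deposited; the submitters' processing notes name MAS5. Its version and settings were not found in the labels. The trimmed mean (2% at each end) of the first 100 probe sets was 2000 on both arrays, so ratios rest on that scaling. Of 45037 probe sets, 34945 had 1 gene symbol in the platform annotation, 932 several and 9160 none. Symbols were updated through 34741 Entrez numbers found in RefSeq (GRCm38.p6).

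The floor of 118 is the higher of both arrays' 95th percentile over 87 probe sets of chemosensory receptor genes. To choose a gene's probe set, signals were floored first. Ratios, counts past 2-fold and list medians were computed in Python 3.11.15 with pandas 2.3.3 after a check on simulated data. That check planted changes far past or far within 2-fold, in bright genes and with less noise than probe sets of 1 gene showed. It therefore says nothing about calls near 2-fold. All genes of the group were described. From related lists, genes past 2-fold and some of the 2 highest and 2 lowest are named; Btla, Tnfrsf25, Tnfrsf1b, Foxp3 and other genes within 2-fold, and the neighbours, were added after their values were seen. The 10 genes and the related lists were chosen with earlier results of these data known. Alternatives covered 3 scalings, 3 treatments of dim signals and 2 choices of probe set. The planned comparison of protein sequences was not run. With 1 array per group, no test was made, and depth in reads does not apply: the number of arrays limits the precision.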

Additional observations from a re-analysis of the deposited data

How the results depend on the processing

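The count of 5 genes at least 2-fold lower and 0 higher was the same under all 8 alternatives. Ctla4, Cd28, Lag3, Tnfrsf4 and Tnfrsf9 were each past 2-fold in all 8. Part of this sameness was fixed in advance. The detected genes lie above the usual and the stricter floor on both arrays, so a stricter floor or no floor cannot change their ratios. Ctla4, Lag3 and Tnfrsf4 have 1 probe set each, so the choices of probe set cannot move them either. The median over the detected genes ran from -1.26 to -1.003. Tnfrsf4 was nearest to the limit at -1.003 with the arrays centred on their medians. Tnfrsf9 came nearest at -1.09 without suffixed probe sets, those with names ending in _a_at, _s_at or _x_at. That setting leaves no probe set for Tnfrsf18, whose only one is 1422303_a_at. The suffixed probe sets of both genes carry a single gene symbol. Tnfrsf18 changed sign only when scaled on housekeeping genes (-0.08). Over all detected genes, 1370 were lower as reported, 899 (8.42%) after quantile normalization and 2006 (18.3%) without a floor. Higher genes were 618 as reported, 478 (4.36%) with a pseudocount and 1093 (9.97%) without a floor.

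Counts of the related lists were less stable. Lower ligands went from 5 to 2 after quantile normalization and to 1 without suffixed probe sets. Higher ligands went from 3 to 1 on housekeeping genes and to 0 with a pseudocount. Lower signalling genes went from 11 to 6 after quantile normalization. Other costimulatory receptors had 2 higher in place of 0, and early activation genes 3 in place of 1, after centring and after quantile normalization. Lower transcription factors went from 3 to 5 on housekeeping genes. Lower other inhibitory receptors went from 2 to 1 with a pseudocount and with the median over probe sets. Without suffixed probe sets, lower early activation genes went from 2 to 1, and the median of the early activation genes went from -0.33 to 0.16. The cause was not tested. No paired analysis was possible because each group has 1 array.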
